A study of Mus musculus with 9 samples.

Results

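The cytosolic ribosomal protein genes were read as 85 of 21887 protein-coding mouse genes. They are the genes whose symbol is Rpl or Rps followed by digits, with or without a suffix such as a, l or x, together with Rplp0, Rplp1, Rplp2 and Rpsa. Ribosomal S6 kinases (Rps6k symbols) and pseudogenes were left out, and no measured value entered the choice. Of the 85 genes, 53 belong to the large subunit and 32 to the small subunit. Among them 8 are paralog forms of a canonical gene, namely Rpl3l, Rpl7l1, Rpl10l, Rpl22l1, Rpl32l, Rpl36al, Rpl39l and Rps27l.

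The cells were T cell lymphoma cells driven by MYCN, taken from the thymus of C57BL/6J mice, and all libraries share that description. Chromatin was profiled by ChIPmentation, a ChIP-seq protocol in which a transposase adds the sequencing adapters to chromatin held on the antibody beads. There was 1 library each for EZH2, N-MYC, p300, H3K27ac, H3K4me3, SUZ12 and H3K27me3, and 2 input libraries that were not used here. The labels name no MYCN construct or promoter, no age or sex, and no animal for any immunoprecipitation, and there was no comparison group without MYCN. With 1 library per antibody no difference has a replicate check, differences between antibodies and libraries cannot be told apart, and no p-value is given. Sequencing depth is unknown, and where a peak is missing, only a call is missing.

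Ribosomal proteins are assembled with ribosomal RNA into the subunits of the ribosome, and their genes are among the most strongly transcribed in dividing cells. MYC-family proteins, which include N-MYC (the product of MYCN), bind DNA with MAX at E-box sequences and at many other active promoters, and ribosome production is among their best known targets. EZH2 is the methyltransferase of Polycomb repressive complex PRC2, SUZ12 is a core subunit of the same complex, and H3K27me3 is the histone mark the complex leaves. H3K4me3 marks active promoters, and p300 is an acetyltransferase that deposits H3K27ac. The series asks, by its title, whether EZH2 acts as an activator in these cells, and ribosomal protein genes are a group in which occupancy can be read at many active promoters.

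The lists held from 9798 peaks for N-MYC to 123056 for H3K27me3. Promoters of all 6 T cell marker genes (Cd3e, Cd3d, Cd3g, Lck, Tcf7 and Bcl11b) carried both H3K4me3 and H3K27ac, against 1 of 4 B cell markers, 0 of 4 myeloid markers and 1 of 4 markers of thymic epithelium. The erythroid marker Hba-a1 carried both marks, with an H3K4me3 fold enrichment of 18.3, and the part of other cells in the lists was not tested. In what follows a gene carried a peak when at least 1 bp of a peak lay within 1 kb of its start. For 65 members a start and strand were given by RefSeq promoter records. For the other 20 no strand was at hand and both gene ends were read.

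Promoter sequences show what the group shares and what it does not. They are RefSeq reference sequence of build GRCm38.p6, matched by symbol for 65 of the 85 genes, with position +1 at the annotated start and −1 at the base before it. The 5 stretches from 150 bases before to 30 after the start belong to the 3 genes of highest N-MYC fold enrichment and to a pair of canonical genes without an N-MYC peak. Capitals mark an ETS match (CCGGAAG), a YY1 match (AAGATGGC), a TATAA match or a pyrimidine start, all defined further on.
Rpl10a, N-MYC fold 14.5, chr17:28328321-28328500, plus strand: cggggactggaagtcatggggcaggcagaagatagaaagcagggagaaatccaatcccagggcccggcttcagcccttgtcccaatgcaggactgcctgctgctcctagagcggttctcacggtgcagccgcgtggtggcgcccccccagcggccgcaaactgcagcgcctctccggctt
Rps3a1, N-MYC fold 14.3, chr3:86142639-86142818, minus strand: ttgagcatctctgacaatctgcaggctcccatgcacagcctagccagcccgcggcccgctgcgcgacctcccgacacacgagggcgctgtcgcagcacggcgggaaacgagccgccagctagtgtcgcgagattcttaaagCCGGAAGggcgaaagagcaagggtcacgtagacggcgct
Rplp0, N-MYC fold 13.8, chr5:115559317-115559496, plus strand: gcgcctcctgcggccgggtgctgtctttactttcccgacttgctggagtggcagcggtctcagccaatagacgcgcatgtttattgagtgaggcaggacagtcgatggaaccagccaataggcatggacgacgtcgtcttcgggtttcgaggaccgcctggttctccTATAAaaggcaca
Rpl10, no N-MYC peak, chrX:74270666-74270845, plus strand: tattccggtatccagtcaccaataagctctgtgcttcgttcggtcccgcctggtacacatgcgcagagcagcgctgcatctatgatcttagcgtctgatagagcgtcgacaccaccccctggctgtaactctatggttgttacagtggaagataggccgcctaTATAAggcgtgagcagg
Rps27, no N-MYC peak, chr3:90213619-90213798, minus strand: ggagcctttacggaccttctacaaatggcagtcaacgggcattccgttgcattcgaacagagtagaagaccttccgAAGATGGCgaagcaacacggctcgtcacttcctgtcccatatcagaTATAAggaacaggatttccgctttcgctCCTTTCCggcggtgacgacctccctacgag
No CACGTG lies in any of the 5 stretches. The ETS match of Rps3a1 is at −9. The TATAA of Rps27 is at −28, while those of Rplp0 and Rpl10 lie downstream of the annotated start, at +18 and +14.

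Nearly every ribosomal protein gene carried EZH2 together with N-MYC and the active marks. EZH2 was called at 77 of the 85 (90.6%), where 45.8% of all protein-coding genes had an EZH2 peak. N-MYC was called at 78 (91.8%), against 32.9% of all genes. p300, the acetyltransferase, was called at 80 (94.1%), against 39.3%. H3K27ac was called at 82 (96.5%), against 51.6%, and H3K4me3 at 81 (95.3%), against 51% of all genes. All 5 of these features were present at 75 genes (88.2%), against 26% of all genes and 50.9% of genes with H3K4me3. The name active features, used below for these 5, is a label and not a result. EZH2 was also called at the B cell markers Pax5 (13.4) and Ebf1 (8.6), with SUZ12 and H3K27me3 and without H3K4me3 or H3K27ac.

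Polycomb features were rarely called. SUZ12 was called at 1 of the 85 genes (1.18%), against 13.7% of all genes. H3K27me3 was called at 3 (3.53%), against 25.8% of all genes. EZH2 and N-MYC with neither Polycomb feature were found at 73 genes (85.9%), against 25% of all genes. All 5 active features with neither Polycomb feature were found at 72 (84.7%), against 24.4% of all genes.

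For EZH2, N-MYC, p300 and H3K27ac the background was closer, but still lower, among genes with H3K4me3. Of the 11155 genes with an H3K4me3 peak, 73.7% carried EZH2, 64.1% N-MYC, 76.5% p300 and 93.3% H3K27ac. The 81 ribosomal protein genes with H3K4me3 carried them at 95.1%, 96.3%, 98.8% and 100%. SUZ12 was called at 10.1% and H3K27me3 at 15.3% of the genes with H3K4me3, against 1.23% and 3.7% of the members with that mark. Both shares are descriptions of single lists, and their difference has no test over samples.

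**Figure D1:**
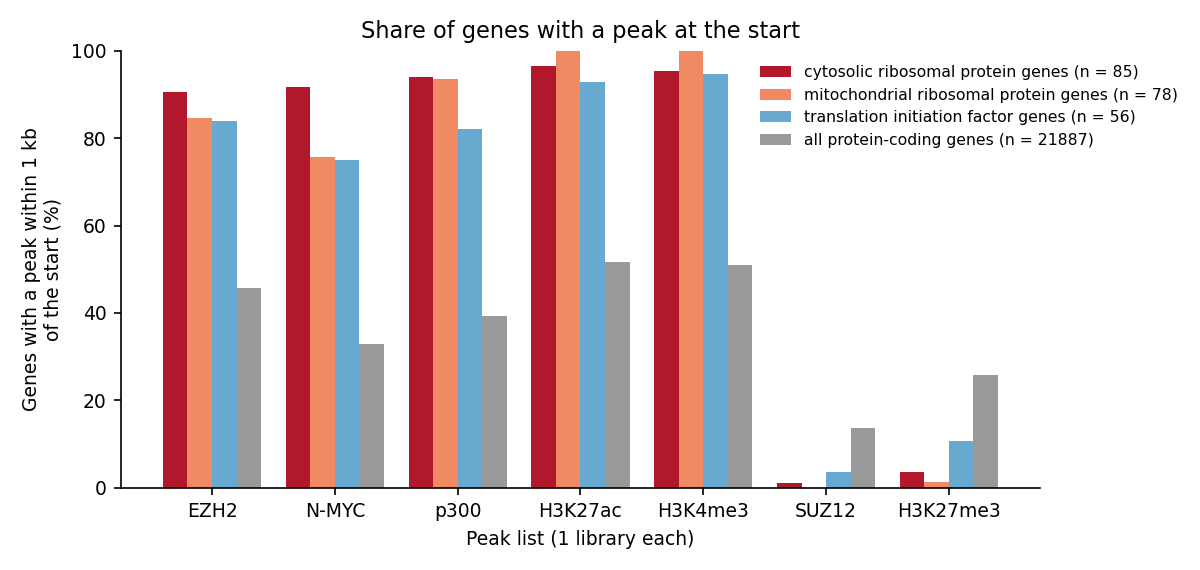
Share of genes (%) with a peak within 1 kb of the start in each of the 7 peak lists, for the 85 cytosolic ribosomal protein genes, 78 mitochondrial ribosomal protein genes, 56 translation initiation factor genes and all 21887 protein-coding genes. The red bars reach 90.6% to 96.5% in the first 5 lists and 1.18% and 3.53% for SUZ12 and H3K27me3.

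The peaks at these genes were also strong within their lists. Fold enrichment is the caller's ratio of signal over background at a peak, and folds of different lists cannot be compared, so each was set against other genes in the same list. The median EZH2 fold over the 77 genes was 7.33, with an interquartile range of 6.01 to 8.6, against a median of 5.85 over the 10014 genes with an EZH2 peak. Of the 77, 59 (76.6%) lay above that median. N-MYC had a median of 8.23 over 78 genes, from 4.27 to 14.5, against 6 over all 7196 genes with a peak, and 59 (75.6%) lay above it.

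The same was true of the histone marks and p300. H3K27ac had a median of 22.5 at the members against 12.3 at all genes with the mark, and 79 of 82 (96.3%) lay above the latter. H3K4me3 had a median of 35.9 against 26.5, with 72 of 81 (88.9%) above. For p300 the medians were 5.9 and 5.39, with 57 of 80 (71.2%) above. The lists differ in length, so these shares describe each list alone and give no order among them.

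**Figure D2:**
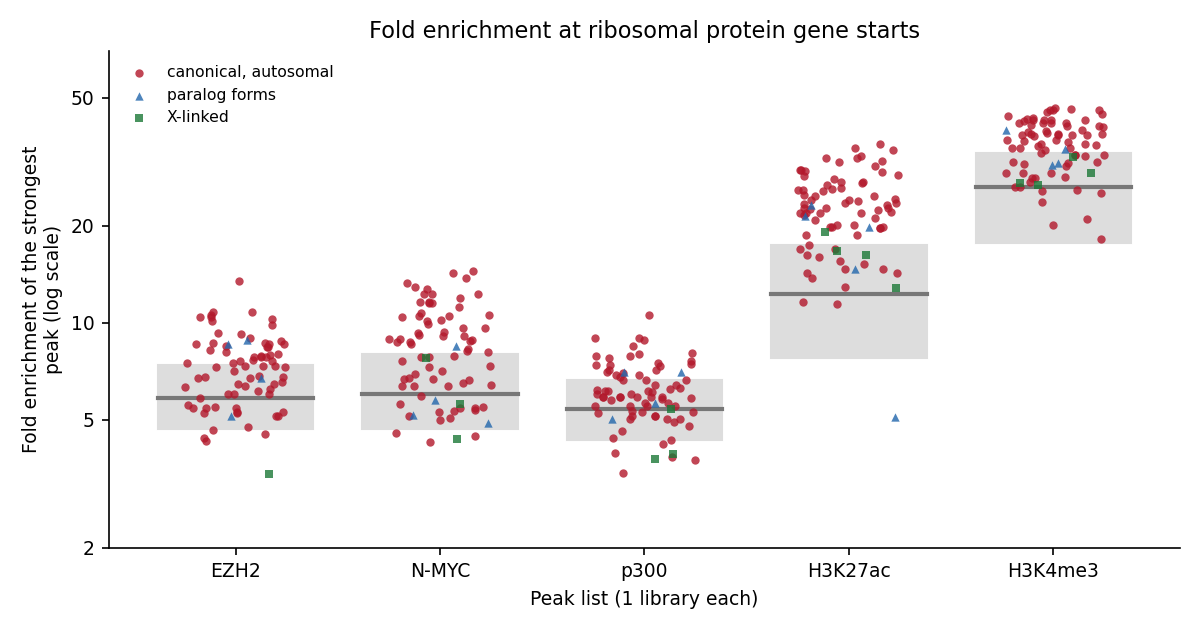
Fold enrichment (log scale) of the strongest peak at each ribosomal protein gene with a peak, by list, with canonical autosomal genes, paralog forms and X-linked genes marked separately. The grey box is the interquartile range and the grey line the median of all protein-coding genes with a peak in that list. The H3K27ac points have a median of 22.5 against a grey line at 12.3, and the p300 points a median of 5.9 against 5.39.

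The order of the members differed from list to list. EZH2 was among its highest at Rpl27a (10.8) and Rps6 (10.8), and lowest at Rplp2 (4.4), Rps9 (4.28) and Rps4x (3.39). N-MYC was highest at Rpl10a (14.5), Rps3a1 (14.3) and Rplp0 (13.8), and lowest at Rpl37a (4.46), Rpl36a (4.36) and Rps21 (4.27). p300 was highest at Rpl41 (10.6), Rpl13a (9) and Rps18 (8.95), and lowest at Rpl36a (3.78), Rpl23 (3.74) and Rpl17 (3.41). No gene stood among the 3 highest in both the EZH2 and the N-MYC list.

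H3K27ac was highest at Rps3a1 (36), Rps13 (35) and Rpl27a (34.3), and lowest at Rps2 (11.6), Rps12 (11.4) and Rpl3l (5.09). H3K4me3 was highest at Rpl19 (46.6), Rpl35a (46.2) and Rps16 (45.9), and lowest at Rpl27 (21), Rpl24 (20.1) and Rpl38 (18.2). Thus Rps3a1 and Rpl27a each appear among the 3 highest in a pair of lists. For Rps3a1 these were N-MYC and H3K27ac, and for Rpl27a EZH2 and H3K27ac. The weakest call of any of the 5 lists at a member by q-value was EZH2 at Rps4x, with a −log10 q of 3.07.

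The large and small subunits gave median folds close to each other in these lists. Among the 46 canonical large-subunit genes EZH2 was called at 42, with a median fold of 7.71, and among the 31 canonical small-subunit genes at 31, with a median of 6.75. N-MYC was called at 44 and 30, with medians of 8.77 and 8.15. p300 was called at 46 and 30, with medians of 5.89 and 5.96. H3K27ac and H3K4me3 were called at all 77 canonical genes, with medians of 22.1 and 24.3 for H3K27ac and 36.5 and 36.4 for H3K4me3.

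The large-subunit genes Rpl5, Rpl11, Rpl3 and Rplp0 carried all 5 active features. Rpl5 and Rpl11, whose proteins bind MDM2 when ribosome assembly fails and so stabilise p53, had EZH2 folds of 10.4 and 8.8 and N-MYC folds of 9.33 and 10.1. Their p300 folds were 3.82 and 5.15, and their H3K4me3 folds were 44.5 and 43. Rpl3, which lies near the peptidyl transferase centre, had EZH2 5.28, N-MYC 6.35, p300 7.38, H3K27ac 17.4 and H3K4me3 31.6. Rplp0, the base of the ribosomal stalk, had EZH2 7.84, N-MYC 13.8, p300 7.38, H3K27ac 18.7 and H3K4me3 29.1.

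The pair Rpl22 and Rpl22l1 is of interest in the thymus, since Rpl22 is needed for the development of αβ T cells and is deleted in some T cell leukaemias, and Rpl22l1 encodes its close paralog. Rpl22 had EZH2 5.49, N-MYC 6.49, p300 5.52, H3K27ac 19.8 and H3K4me3 26.4. Rpl22l1 had EZH2 5.15, N-MYC 8.48, p300 7.01, H3K27ac 23.2 and H3K4me3 30.9. Both genes carried all 5 active features and neither Polycomb feature, and both had EZH2 folds below the group's median of 7.33.

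The small-subunit genes Rps6, Rps14, Rps19, Rpsa and Rps27a also carried all 5. Rps6, the substrate of the S6 kinases, had EZH2 10.8, N-MYC 11.6, p300 6.39, H3K27ac 31.8 and H3K4me3 38.4. Rps14, the gene of the small subunit linked to a myelodysplastic syndrome, had EZH2 10.3, N-MYC 8.6, p300 7.01, H3K27ac 32.9 and H3K4me3 45.7. Both were above the group's median in every one of the 5 lists. Rps19, the gene most often mutated in Diamond-Blackfan anaemia, had EZH2 6.16, N-MYC 9.07, p300 7.47, H3K27ac 21.6 and H3K4me3 41.3. Rpsa, also known as a laminin receptor, had EZH2 6.01, N-MYC 7.34, p300 7.13, H3K27ac 19.8 and H3K4me3 38. Rps27a, which encodes ubiquitin fused to a ribosomal protein, had EZH2 5.14, N-MYC 7.81, p300 5.89, H3K27ac 25.8 and H3K4me3 28.4.

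Of the 85 genes, 10 lacked at least 1 of the 5 active features, and 4 of those 10 were paralog forms. Rpl10l, Rpl32l and Rpl39l had no peak in any of the 7 lists. Rpl3l, a paralog of Rpl3 known from striated muscle, had H3K27ac alone, at a fold of 5.09, the lowest of the group. The nearest H3K4me3 peak to Rpl3l, with a fold of 33.3, lay 3152 bp away and is the peak called at the start of Rps2. The other 4 paralog forms, Rpl7l1, Rpl22l1, Rpl36al and Rps27l, carried all 5.

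Among the canonical genes EZH2 was missing at Rpl10, Rpl36a, Rpl39 and Rpl17, N-MYC at Rpl10, Rps27 and Rpl17, and p300 at Rps4x. At Rpl17 the call depends on the window. No strand was given for this gene, and EZH2 and N-MYC peaks with folds of 7.98 and 6.07 lay 1518 and 1292 bp from its nearer end. Both lay under its H3K4me3 peak (fold 39.6), and both counted when the whole H3K4me3 peak was read. The farthest peaks still inside the 1 kb window were those of EZH2 and N-MYC at Rpl29 (521 and 443 bp), of p300, H3K27ac and H3K4me3 at Rpl17 (874, 707 and 294 bp) and of H3K27me3 at Rpl31 (927 bp). Besides those of Rpl17, the nearest peaks beyond the window were H3K27ac near Rpl32l (1302 bp, fold 3.31) and p300 near Rpl3l (4008 bp). For H3K4me3 it was the Rps2 peak, 3152 bp from Rpl3l. At Rps27 the nearest N-MYC peak was 17704 bp from the start, while EZH2 (6.03), p300 (7.88), H3K27ac (27.3) and H3K4me3 (34.8) were all present. At Rpl10, a gene mutated in T cell leukaemia, the nearest EZH2 and N-MYC peaks lay 15561 and 16114 bp away, and the gene carried p300 (5.4), H3K27ac (16.7) and H3K4me3 (27.2).

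Leaving the window case aside, every canonical gene without EZH2 was on the X chromosome. This split was made after the values were seen. Of the 4 X-linked members, EZH2 was called at Rps4x alone, with the group's lowest fold of 3.39. N-MYC was called at 3 of the 4, namely Rpl36a (4.36), Rps4x (5.59) and Rpl39 (7.78), and p300 at 3, namely Rpl36a (3.78), Rpl39 (3.9) and Rpl10 (5.4). H3K27ac (12.8 to 19.1) and H3K4me3 (26.8 to 32.8) were called at all 4.

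The same gap was present in X-linked genes at large. Of the 334 X-linked genes with H3K4me3, 27.8% had an EZH2 peak, 32.3% N-MYC, 36.5% p300 and 90.1% H3K27ac. Of the 10821 autosomal genes with H3K4me3, 75.2%, 65%, 77.7% and 93.4% had them. The sex of the animals is not stated, and the part of the number of X copies in these shares was not tested. Among the 73 canonical autosomal genes EZH2 was called at 72, N-MYC at 71, and p300, H3K27ac and H3K4me3 at 73.

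**Figure D3:**
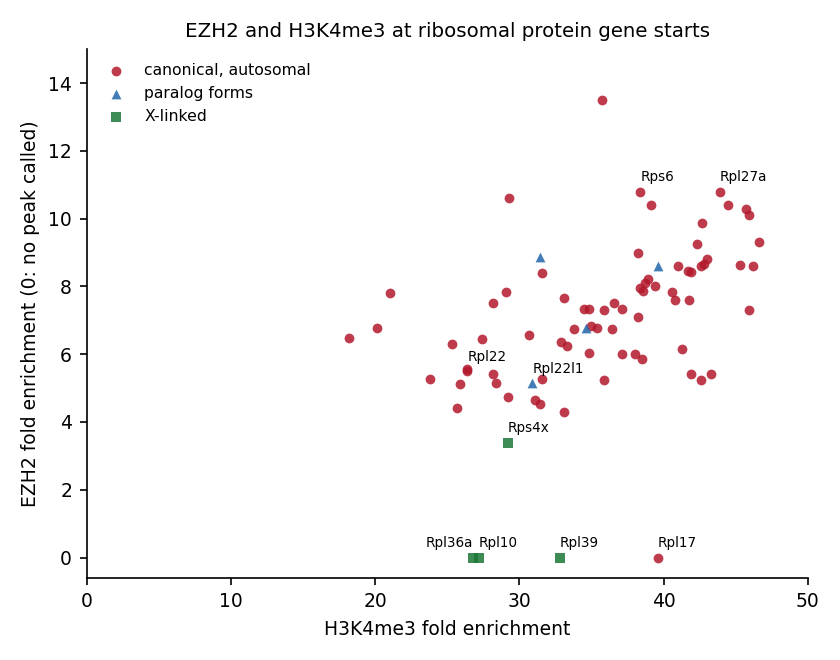
EZH2 fold enrichment against H3K4me3 fold enrichment at each ribosomal protein gene with H3K4me3, with genes without a called EZH2 peak drawn at 0. The 4 genes at 0 are the X-linked Rpl10, Rpl36a and Rpl39 and the autosomal Rpl17. The other EZH2 points spread upward with H3K4me3, from 3.39 at Rps4x.

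Within the group the EZH2 fold followed the promoter marks more than it followed N-MYC or p300. Across the 77 genes with both, Spearman's rho between EZH2 and H3K4me3 was 0.566 (Pearson's r 0.49), and with H3K27ac it was 0.464. With N-MYC it was 0.181 over 76 genes, and with p300 it was −0.076 over 76. Over all genes with both peaks the same 4 values were 0.44, 0.288, 0.177 and 0.208. N-MYC and H3K27ac gave 0.358 over 78 members. These describe genes that share the same libraries, and genes are not independent replicates. The folds also share what makes a site easy to recover, such as base composition and mappability, and their part was not tested.

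At Rpl26 and Rpl31, both of the large subunit, the H3K27me3 peaks were weak and upstream. Their folds were 4.76 and 3.2, their widths 208 and 378 bp, and their summits lay at −717 and −1235 bp from the start. Both genes carried all 5 active features, with EZH2 folds of 10.6 and 7.61, and no SUZ12 peak. The next member outside the 1 kb window was Rpl5, 2573 bp from an H3K27me3 peak (fold 3.64), and for SUZ12 it was Rpl23a, 3565 bp from a peak of fold 9.23.

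At ribosomal protein genes the summits of N-MYC and p300 lay nearer the start than those of EZH2 and the marks. Positions are given for the genes with a stated strand, positive into the gene. The median N-MYC summit lay at +126 bp (interquartile range 35.5 to 206, 59 genes), and the median p300 summit at +32 bp (60 genes), with 56.7% of p300 summits inside the gene. Without the members that have another gene's start within 1 kb, the p300 median was +113 bp (47 genes) and the N-MYC median +135 bp, so the order of those 2 proteins is not firm. The median EZH2 summit lay at +354.5 bp (58 genes), H3K27ac at +330.5 bp (62 genes) and H3K4me3 at +411 bp (61 genes). Between the subunits the p300 summit differed most, with a median of +118 bp at 37 large-subunit and −28 bp at 23 small-subunit genes. EZH2 summits were downstream of the start at 96.6% of these genes and N-MYC summits at 84.7%.

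The EZH2 summit was close to the summits of the marks and apart from N-MYC. The median distance from the EZH2 summit was 87 bp to H3K27ac and 113 bp to H3K4me3, against 249 bp to N-MYC and 309.5 bp to p300. N-MYC and p300 summits were 155 bp apart. These medians include members without a stated strand. For the members with a stated start they were 88.5, 111, 243, 323 and 167 bp in the same order. Over all genes with a stated start the distances were 147, 116, 324, 358 and 164 bp. EZH2 thus lay nearer the marks than N-MYC or p300 there too, but with H3K4me3 nearer than H3K27ac. No EZH2 summit of 58 fell between 250 bases before and 50 after the start, while 16 of 59 N-MYC summits did and 42 lay further into the gene.

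The N-MYC summits lay further into the gene here than at other genes. Over all genes with a stated start the median N-MYC summit was at +10 bp with 51.8% downstream, against +126 bp and 84.7% here. The mitochondrial ribosomal protein genes had a median of +3 bp, and the initiation factor genes −6 bp. EZH2 lay at +280 bp over all genes, +176 bp at mitochondrial ribosomal protein genes and +337 bp at initiation factor genes. H3K4me3 lay at +292, +220 and +338 bp in the same order. These distances count from the annotated start, and whether that base is the one used in these cells was not tested. Rplp0 and Rpl10, shown above, have a TATAA match downstream of the annotated start. The N-MYC summit of Rplp0 lay at −30 bp, and Rpl10 had no N-MYC peak.

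**Figure D4:**
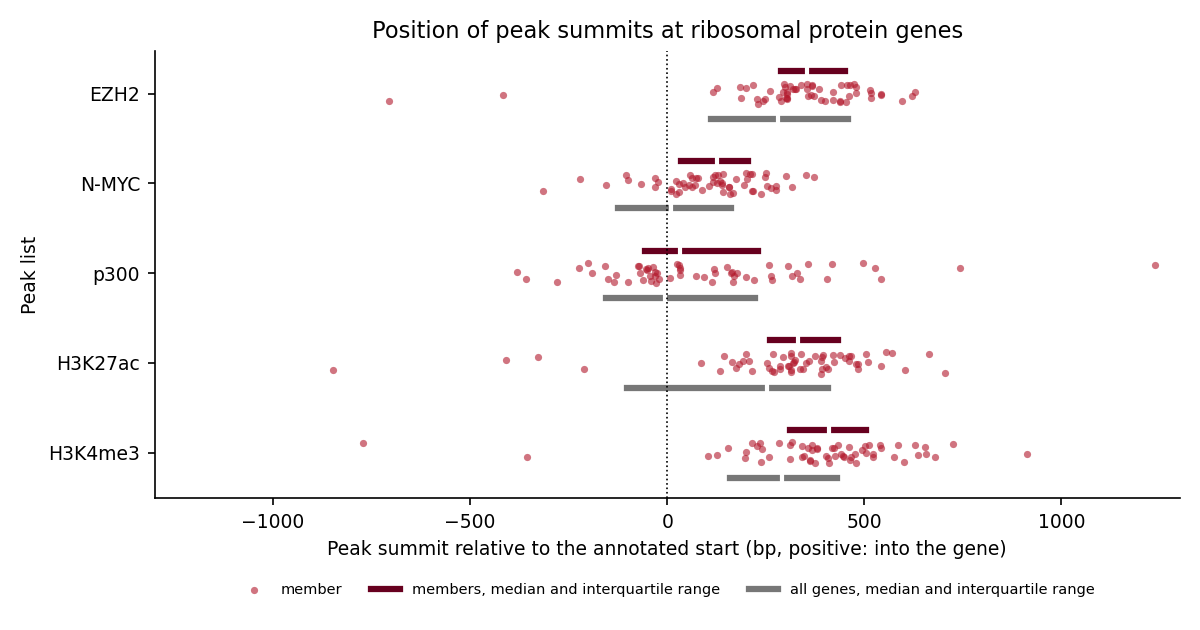
Distance in bp of each peak summit from the annotated gene start, positive into the gene, for the 5 active lists. Points are ribosomal protein genes with a stated strand, dark bars their median and interquartile range, and grey bars those of all genes, so that the median N-MYC summit is seen at +126 bp against +10 bp and the median EZH2 summit at +354.5 bp against +280 bp.

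Motifs were searched in the 65 member promoters, from 250 bases before to 50 after the start, and in all 17492 promoters of the same length. Matches are of letters only and are no evidence of binding. The E-box CACGTG, the preferred site of MYC with MAX (a palindrome, so both strands are the same), occurred in 5 of the 65 (7.69%), against 7.9% of all promoters and 10.7% of the 9119 promoters with H3K4me3. The share was thus near the background. Mitochondrial ribosomal protein genes had it at 7.25% and initiation factor genes at 18.2% (8 of 44). The 5 are shown with 20 bases on either side, and capitals mark the E-box.
Rpl13a, E-box at −200, chr7:45128920-45128965, minus strand: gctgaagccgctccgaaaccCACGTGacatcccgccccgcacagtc
Rpl14, E-box at −168, chr9:120571329-120571374, plus strand: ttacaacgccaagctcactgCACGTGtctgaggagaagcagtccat
Rpl19, E-box at −19, chr11:98026671-98026716, plus strand: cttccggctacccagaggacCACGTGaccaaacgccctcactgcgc
Rpl23, E-box at −3, chr11:97782417-97782462, minus strand: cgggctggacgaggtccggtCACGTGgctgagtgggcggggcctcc
Rpl34, E-box at −155, chr3:130730528-130730573, minus strand: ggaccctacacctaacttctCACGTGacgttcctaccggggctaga
All 5 had an N-MYC peak, and so did 54 of the 60 members without the E-box. The median N-MYC fold was 6.7 with and 8.72 without it. Rpl13a (13.3) was the only 1 of the 5 above 8.72, and the others ranged from 5.32 to 7.29. The N-MYC summit lay 117 to 367 bp from the E-box, in none of the 5 within 100 bp. Over all promoters an N-MYC peak was called at 55.4% of those with the E-box and 32.2% of those without.

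Among the other motifs, the ETS core was more frequent at these promoters than among all promoters. The ETS core CCGGAAG, on either strand, was found in 25 of 65 (38.5%), against 11.9% of all promoters and 20.4% of those with H3K4me3. Mitochondrial ribosomal protein genes had it at 36.2% and initiation factor genes at 31.8%. TATAA was found in 18 of the 65 members (27.7%), near the 22.8% of all promoters and above the 12% of those with H3K4me3. The YY1 core AAGATGGC was found in 5 of 65 (7.69%), against 3.22% and 5.09%, a count too small to read as a difference. Mitochondrial ribosomal protein genes had the YY1 core at 17.4% (12 of 69).

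The GC box GGGCGG, bound by SP1, was found in 60% of the members, between the 46.3% of all promoters and the 67.4% of those with H3K4me3. The median GC content of the member promoters was 57%, against 56.3% of all promoters and 61.7% of those with H3K4me3. It was thus lower here than at promoters with H3K4me3 as a whole. Base composition alone changes how often short motifs occur, and its part in these shares was not tested.

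Set against promoters with H3K4me3, the widest gap in share among the 6 motifs was that of the pyrimidine start. It is the sequence behind the terminal oligopyrimidine tract, through which mTOR signalling controls the translation of ribosomal protein mRNAs, and was read on the sense strand as a C followed by at least 4 C or T within 5 bases of the annotated start. It was found in 29 of 65 (44.6%), against 18.7% of all promoters, 20.1% of those with H3K4me3, 21.7% of mitochondrial ribosomal protein genes and 29.5% of initiation factor genes. The 6 members with the tract and the highest H3K4me3 fold, chosen after the values were seen, are shown from 10 bases before to 20 after the start, with the tract in capitals.
Rpl19, chr11:98026700-98026729, plus strand: aaacgCCCTCactgcgcatgtgcgccgcgg
Rpl12, chr2:32961702-32961731, plus strand: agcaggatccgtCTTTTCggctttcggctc
Rpl27a, chr7:109519185-109519214, plus strand: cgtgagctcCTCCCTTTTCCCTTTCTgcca
Rpl13a, chr7:45128726-45128755, minus strand: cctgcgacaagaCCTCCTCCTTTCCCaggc
Rpl15, chr14:18270967-18270996, minus strand: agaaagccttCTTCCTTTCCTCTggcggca
Rps24, chr14:24490668-24490697, plus strand: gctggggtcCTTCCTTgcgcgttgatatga
Their tracts differ in length and in the bases around them. The EZH2 median was 7.51 with the tract and 7.33 without it, and the N-MYC median 8.18 and 8.72. The H3K4me3 median was 38.3 with and 33.8 without. The ranges overlapped in each case, and for H3K4me3 they were 18.2 to 46.6 and 20.1 to 46.2.

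**Figure D5:**
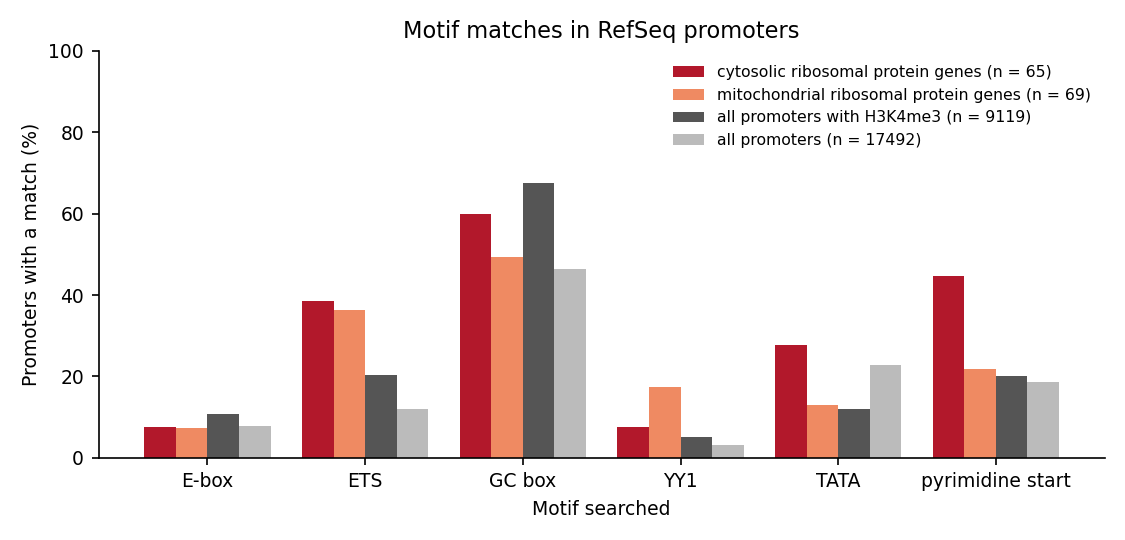
Share of RefSeq promoters (%) that hold each of 6 motifs, for 65 cytosolic and 69 mitochondrial ribosomal protein genes, the 9119 promoters with H3K4me3 and all 17492 promoters. The pyrimidine start stands at 44.6% in the cytosolic genes and between 18.7% and 21.7% in the other sets, and the E-box between 7.25% and 10.7% in the 4 sets drawn.

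Genes of the mitochondrial ribosome carried the same features with lower median folds. The 78 Mrpl and Mrps genes, which encode the proteins of that ribosome, carried EZH2 at 66 (84.6%), N-MYC at 59 (75.6%), p300 at 73 (93.6%) and H3K27ac and H3K4me3 at all 78. Their median EZH2 fold was 5.02 against 7.33, and 31.8% of their EZH2 folds lay above the median of all genes, against 76.6% for the cytosolic genes. For N-MYC the medians were 7.09 and 8.23, and the shares above the median of all genes 71.2% and 75.6%. For H3K27ac the medians were 13.2 and 22.5. H3K27me3 was called at 1 and SUZ12 at 0 of the 78.

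Translation initiation factor genes had median folds near those of the ribosomal protein genes for N-MYC, p300 and H3K4me3. Of 56 Eif genes, EZH2 was called at 47 (83.9%, median fold 6.73), N-MYC at 42 (75%, 8.36), p300 at 46 (82.1%, 6.02), H3K27ac at 52 (92.9%, 15.6) and H3K4me3 at 53 (94.6%, 34.4). SUZ12 was called at 2 and H3K27me3 at 6 (10.7%). For H3K27ac the median of 15.6 stood below the 22.5 of the ribosomal protein genes.

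The remaining genes of the translation machinery that were looked up carried the same features. Fau and Rack1 encode ribosomal proteins under other symbols, and both carried the 5 active features and neither Polycomb feature. Rack1 had an N-MYC fold of 18.8, above the 14.5 of Rpl10a. All 5 elongation factor genes (Eef1a1, Eef1b2, Eef1d, Eef1g and Eef2) carried the 5 features, with EZH2 folds from 3.44 at Eef1d to 8.6 at Eef1a1.

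Of 10 other genes with terminal oligopyrimidine mRNAs, EZH2 was called at 9, N-MYC at 8, p300 and H3K27ac at 9 and H3K4me3 at 10. Npm1, a nucleolar chaperone of ribosome assembly, had N-MYC at 9.88 and no EZH2 peak in the window. Eif3f had EZH2 at 4.78 and no N-MYC peak. Vim, an intermediate filament gene, was the 1 gene of the 10 with Polycomb features, with SUZ12 at 6.08, H3K27me3 at 12.4, EZH2 at 5.43, H3K4me3 at 4.78 and no N-MYC, p300 or H3K27ac peak.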

How the data were processed

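ChIPmentation libraries from MYCN-driven T cell lymphoma cells were deposited as 7 peak lists, 1 per antibody. The submitters' processing notes name FastQC, Bowtie2, SAMtools, MACS2 and deepTools and the builds mm10 and GRCm38. Versions, settings, the control used and any pooling are not given in the sources used here. The authors' fold enrichment, a linear ratio per peak, entered as deposited. Significance was deposited as −log10 of p-values and q-values, and the smallest −log10 q was 2 to 2.08 per list. A score column, deposited beside them, was not used. The columns were identified from layout and values, since the files have no header.

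Peaks on 21 chromosomes were matched to RefSeq genes of GRCm38.p6 with Python 3.11.15, numpy 2.4.6 and pandas 2.3.3. A gene was called when a peak overlapped the window of 1 kb on either side of any listed start by at least 1 bp. Members without a stated strand (20 of 85) were read at both ends, which differs from 1 stated start, and gave no summit position. The strongest peak represented a gene with several, and positions used the first listed start. A suffix with more than 1 letter or digit (Rps3a1, Rpl36al, Rpl22l1) was counted as a member, and 17 members have the start of another protein-coding gene within 1 kb. The matching was tested on simulated peaks.

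No test was run, because there was 1 library per antibody. The named genes were 13 members fixed by name, those without 1 of the 5 active features, those with a Polycomb feature, and the 3 highest and lowest in each list. A few genes under this rule and the lists are not reported here. The members, gene lists and motifs were chosen with earlier results of these data known. Alternatives changed the window, the reading of peaks, the threshold, the list length and the member rule.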

Additional observations from a re-analysis of the deposited data

How the results depend on the processing

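There were 12 alternative settings. Of these, 3 were added after seeing the data (stated starts only, X chromosome left out, genes with another start within 1 kb left out). Of 108 counts of members, 102 stayed within 1.5 times the reported count. For the 5 active features this limit says little, since counts near the full number of members cannot rise that far. Some settings also leave members out, and raw counts were compared. The 100 medians of fold enrichment and summit position were run under 10 of the settings (not the 2 that change how a peak is read). All stayed inside the 95% order-statistic interval of the reported median. The interval treats genes of 1 library as independent replicates, and the settings read mostly the same genes, so staying inside does not test stability. That interval is wide for p300, whose median summit moved from +32 to +113 bp without genes that have another start within 1 kb. The 6 counts that moved beyond 1.5 times were the small Polycomb counts. The SUZ12 count went from 1 to 0 with a window of 500 bp, with the summit required in the window and with stated starts only. The H3K27me3 count went from 3 to 0 with a window of 500 bp, and to 1 with the summit required in the window or with every list limited to its 9798 most significant peaks. With lists of equal length EZH2 was called at 89.4% of the members and 34.6% of all genes, and all 5 active features without a Polycomb feature at 87.1% and 17%. No paired analysis was possible because each antibody has 1 library and the counts come from no test. Unknown depth limits every missing peak, and list lengths differ, so shares from different lists cannot be ranked.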

Other observations

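Genes with near symbols did not all follow the ribosomal protein genes. Of the 10 genes with ribosomal S6 kinase symbols, H3K27ac and H3K4me3 were called at 9 each, p300 at 7, EZH2 at 4 and N-MYC at 3. Over all protein-coding genes the shares were 51.6%, 51%, 39.3%, 45.8% and 32.9% in the same order. The EZH2 and N-MYC counts were thus near the background. Rps6kb1 had an EZH2 fold of 9.79 and an N-MYC fold of 3.74. Rps6ka6, on the X chromosome, carried H3K27me3 (6.86) and no other feature. Of 6 further genes with ribosomal protein symbols that are not members, 4 had no peak in any list. Rps27rt carried H3K27me3 (16.8) with a weak H3K4me3 peak (5.02). Rps19bp1 carried H3K4me3 (21.6), H3K27ac (7.77), p300 (4.53) and EZH2 (2.95), but no N-MYC peak.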
